A study of Homo sapiens with 24 samples.

Results

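The transcripts described here come from 10 genes of glycolysis: HK2, GPI, PFKP, ALDOA, TPI1, GAPDH, PGK1, ENO1, PKM and LDHA. They were found by symbol among the 60658 genes of the deposited count tables, each symbol matched 1 row, and all 10 passed the filter on low counts in every comparison. Glycolysis splits glucose into pyruvate in the cytosol and yields ATP and NADH, and lactate dehydrogenase returns the NADH to NAD+ by making lactate. Hexokinase 2 (HK2) traps glucose as glucose 6-phosphate, glucose-6-phosphate isomerase (GPI) turns it into fructose 6-phosphate, and the platelet form of phosphofructokinase (PFKP) commits it to the pathway. Aldolase A (ALDOA) then cleaves the sugar, triosephosphate isomerase (TPI1) interconverts the products, and GAPDH, phosphoglycerate kinase 1 (PGK1), enolase 1 (ENO1), pyruvate kinase M (PKM) and lactate dehydrogenase A (LDHA) carry the chain to lactate. Many of these genes are known targets of the hypoxia-inducible factor HIF-1 and of MYC, and they are widely transcribed in cultured tumour cells.

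Polyadenylated RNA was sequenced from cells labelled SH-SY5Y, a neuroblastoma line, after knockdown (KD) of the circular RNA ciRS-7 or treatment with a non-targeting control (NTC), to look for off-target effects of 4 knockdown setups. Both arms of the agoshRNA setup received a vector for a short hairpin that Argonaute processes. Both arms of the gRNA and the pre-gRNA setup received a plasmid for the RNA-targeting nuclease CasRx fused to GFP together with a plasmid for a mature guide or for a precursor guide. The syn-gRNA setup used a chemically made guide, and the labels do not describe how it was delivered or how CasRx was supplied there. The labels give Lipofectamine as the reagent for the plasmids and harvest at 48 h after transfection. Each arm of each setup held 3 libraries, so that there were 8 groups and 24 libraries, named here by setup, arm and the letter A, B or C of their column. Nothing in the labels says whether the 3 libraries of a group came from separate cultures, so each p-value measures the spread between these libraries only, which may be technical. In such bulk samples, fewer cells that use a gene and less RNA per cell cannot be told apart.

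Total counts ranged from 10994974 to 16233777 per library, and mitochondrial genes took 3.36 to 5.13% of them. The circle itself has no poly(A) tail and was not measured; the CDR1-AS model at its locus had 0 to 15 counts in the KD libraries and 2 to 16 in the NTC libraries, which is too low to check the labels. Of 9 markers of noradrenergic neuroblastoma cells, 5 (PHOX2A, STMN2, ELAVL4, DBH and TH) were below 1 CPM (counts per 1000000 counts of the library) in mean, with at most 5 counts in any library, while GATA2, HAND1, TBX2 and CHRNA3 averaged 13.0 to 35.7 CPM. Of 5 kidney-lineage genes 4 averaged over 10 CPM, with HOXA9, HOXA10 and HOXA11 at 43.6 to 98.2 CPM, while PAX8 averaged 0.0138 CPM. Of 4 markers of mesenchymal cells, VIM averaged 872 CPM, FN1 72.7 CPM, COL1A1 15.7 CPM and PRRX1 1.77 CPM. The defining neuronal markers of the labelled line were thus at or near 0, and the levels below are those of the cells as deposited.

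The sequences next to the start sites of 5 of the genes are shown because the levels of HK2 and LDHA correlated little with those of GAPDH and GPI over the 24 libraries, while PGK1 correlated with all 4. These correlations differed within single setups and after a trend on GC content was removed, as given below. Each sequence is the stretch of 250 bases directly upstream of the most upstream annotated start, 5′ to 3′ on the gene's strand, from RefSeq on GRCh38.p14. HK2 is at chr2:74833877-74834126, LDHA at chr11:18394313-18394562, PGK1 at chrX:78103998-78104247, GAPDH at chr12:6535014-6535263 and GPI at chr19:34364742-34364991, all on the plus strand. Capitals mark ACGTG or GCGTG on either strand, the core letters of the element that HIF-1 is known to bind. ACGTG is also part of CACGTG, the element that MYC and USF factors bind, and a CACGTG is counted once on each strand.
HK2: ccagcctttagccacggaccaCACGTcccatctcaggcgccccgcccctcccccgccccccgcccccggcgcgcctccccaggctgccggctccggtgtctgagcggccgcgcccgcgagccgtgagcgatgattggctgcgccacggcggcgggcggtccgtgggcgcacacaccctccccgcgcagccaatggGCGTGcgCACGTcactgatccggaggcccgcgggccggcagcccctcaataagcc
LDHA: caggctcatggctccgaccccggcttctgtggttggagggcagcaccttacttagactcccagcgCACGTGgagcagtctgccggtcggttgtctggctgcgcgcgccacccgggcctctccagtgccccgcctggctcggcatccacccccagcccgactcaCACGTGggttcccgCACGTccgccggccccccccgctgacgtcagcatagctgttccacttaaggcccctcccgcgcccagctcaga
PGK1: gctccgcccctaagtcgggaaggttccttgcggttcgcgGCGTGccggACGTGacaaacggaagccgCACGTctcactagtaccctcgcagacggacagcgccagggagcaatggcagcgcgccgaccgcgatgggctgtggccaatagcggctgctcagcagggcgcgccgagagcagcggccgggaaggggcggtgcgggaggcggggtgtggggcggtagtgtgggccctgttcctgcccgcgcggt
GAPDH: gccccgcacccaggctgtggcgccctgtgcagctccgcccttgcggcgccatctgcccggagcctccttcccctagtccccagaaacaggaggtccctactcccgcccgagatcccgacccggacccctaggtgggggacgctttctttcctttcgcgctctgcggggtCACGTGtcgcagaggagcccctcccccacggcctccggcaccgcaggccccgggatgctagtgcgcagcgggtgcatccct
GPI: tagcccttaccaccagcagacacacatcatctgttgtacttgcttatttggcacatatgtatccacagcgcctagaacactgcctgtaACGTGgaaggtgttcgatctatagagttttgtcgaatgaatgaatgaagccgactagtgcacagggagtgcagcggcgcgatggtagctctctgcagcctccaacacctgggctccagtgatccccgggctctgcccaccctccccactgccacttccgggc
The LDHA window held 5 matches to ACGTG and the HK2 and PGK1 windows each held 2 to ACGTG and 1 to GCGTG. GAPDH had 2 matches to ACGTG and GPI had 1. Among the other members, ALDOA had 1 match to ACGTG, ENO1 had 2 to GCGTG, and none was in the first window of PFKP, TPI1 or PKM. In all, 7 of the 10 members had 1 of the words in that window, against 43.2% of 35116 such windows of annotated genes (18.5% for ACGTG and 32.2% for GCGTG). The first windows of the members had 54.8 to 76.8% GC, and no background matched for GC content was counted. Windows of later starts also held words, with 1 ACGTG and 1 GCGTG at the second of TPI1. For PFKP there was 1 ACGTG at the third start and 3 GCGTG at the fourth. These are matches of letters, and no binding was measured.

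The members together took 0.967 to 2.55% of all counts in a library. The share was highest in pre-gRNA NTC B (2.55%) and pre-gRNA KD B (2.52%) and lowest in agoshRNA NTC C (0.967%). By group it was 1.58% ± 0.468 (SD, n = 3) in agoshRNA KD and 1.52% ± 0.485 in agoshRNA NTC, 1.72% ± 0.503 and 1.53% ± 0.336 in gRNA, 1.75% ± 0.692 and 1.87% ± 0.644 in pre-gRNA, and 1.38% ± 0.213 and 1.34% ± 0.159 in syn-gRNA. The libraries of the syn-gRNA setup lay closest together, and all groups overlapped.

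Divided by the deposited gene length, GAPDH had the highest mean level, 1858 CPM per kb. ALDOA, ENO1 and TPI1 followed at 490, 472 and 413 CPM per kb, LDHA stood at 289, PKM at 168 and PGK1 at 160. GPI, the upper-pathway isomerase, was at 44.9 CPM per kb, and the 2 kinases of the upper pathway were lowest, with 22.3 CPM per kb for HK2 and 16.8 for PFKP. GAPDH kept rank 1 and PKM, PGK1 and GPI kept ranks 6, 7 and 8 when the longest or the median annotated transcript replaced the deposited length. ENO1 then had rank 2, LDHA rank 4 or 3, ALDOA rank 3 or 4 and TPI1 rank 5, and HK2 came after PFKP. The order of LDHA, ENO1, ALDOA and TPI1 thus depends on the length used.

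Overlapping gene models touch some of these levels, because the libraries were not stranded and the counting settings are not given in the sources used here. CTD-2515O10.6, a model on the same strand that spans ALDOA, had 97.4 to 99.4% as many counts as ALDOA in each library. RP5-940J5.9, on the other strand inside GAPDH, had 43.8 to 47.3% as many counts as GAPDH, RP11-618P17.4 had 22.3 to 25.6% of the GPI count, and a model that overlaps PFKP had 10.3 to 16.8% of the PFKP count. The log2 levels of each overlapping model and its member correlated across the 24 libraries with r from 0.97 to 1.00, so the reads of the 4 members may have been counted for both models or split between them. The 13 processed pseudogenes of the members held 342 counts in all libraries together, against 5380745 for the members.

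Among the first 3 enzymes, HK2 varied most between libraries. In agoshRNA, HK2 stood at 176, 174 and 48.6 CPM in KD A, B and C and at 181, 178 and 63.0 CPM in NTC A, B and C. In gRNA it was at 117, 183 and 149 CPM in KD and at 229, 164 and 143 CPM in NTC. Both C libraries of agoshRNA were thus far below the others of their setup, and KD and NTC overlapped in both setups.

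HK2 reached 206, 127 and 137 CPM in pre-gRNA KD and 186, 101 and 134 CPM in pre-gRNA NTC. In syn-gRNA it stood at 69.3, 103 and 117 CPM in KD and at 77.8, 85.8 and 88.2 CPM in NTC. The 3 syn-gRNA NTC libraries were below every gRNA and pre-gRNA NTC library but above agoshRNA NTC C. How many of all genes separate these libraries likewise was not counted. The highest HK2 level, in gRNA NTC A, was 4.72 times the lowest, in agoshRNA KD C, the widest ratio among the members.

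GPI ranged from 304 CPM in agoshRNA KD B to 827 CPM in pre-gRNA NTC B, with a median of 429 CPM. PFKP ranged from 50.9 CPM in syn-gRNA KD A to 146 CPM in agoshRNA KD A, with a median of 70.1 CPM. The 3 syn-gRNA NTC libraries had nearly the same PFKP level, 56.2 CPM ± 0.262 (SD, n = 3), and all 6 syn-gRNA libraries (50.9 to 64.9 CPM) were below all 6 pre-gRNA libraries (65.4 to 114 CPM) and all 6 gRNA libraries (69.7 to 129 CPM). They overlapped with the agoshRNA libraries, of which KD B, KD C and NTC C were at 59.9, 54.0 and 52.3 CPM. The margin to the pre-gRNA libraries was narrow. The share of all genes that set the syn-gRNA libraries apart in this way was not counted.

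For ALDOA, GAPDH and TPI1 the B libraries of pre-gRNA were on top, as they were for GPI. ALDOA stood at 1841, 3850 and 1242 CPM in pre-gRNA KD A, B and C and at 2280, 3844 and 1408 CPM in the NTC libraries. GAPDH was at 4557, 9211 and 3881 CPM in pre-gRNA KD and at 5319, 9049 and 4179 CPM in pre-gRNA NTC. For both genes the B libraries were far above the A and C libraries of the setup, in KD and in NTC alike.

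GAPDH was at 6275, 5480 and 5098 CPM in agoshRNA KD and at 5571, 6373 and 4238 CPM in agoshRNA NTC. In gRNA it was at 6869, 6238 and 3894 CPM in KD and 5087, 5978 and 3715 CPM in NTC, and in syn-gRNA at 4400, 6347 and 5237 CPM in KD and 4253, 5954 and 5701 CPM in NTC. GAPDH, which is often taken as a reference gene, had the smallest ratio of highest to lowest library among the members, 2.48, and its groups overlapped. TPI1 ranged from 693 CPM in agoshRNA NTC C to 1868 CPM in pre-gRNA NTC B.

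In the lower pathway, PGK1 ranged from 436 CPM in agoshRNA NTC C to 1261 CPM in pre-gRNA NTC B, and PKM from 622 CPM in agoshRNA NTC C to 2423 CPM in gRNA KD A. ENO1 stood at 4027, 2366 and 1637 CPM in agoshRNA KD and at 3369, 2772 and 1313 CPM in agoshRNA NTC. It stood at 4257, 2536 and 1939 CPM in gRNA KD and at 3027, 2519 and 1856 CPM in gRNA NTC. In both setups and both arms the A library had the most ENO1 and the C library the least.

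ENO1 reached 2593, 4090 and 1939 CPM in pre-gRNA KD and 3217, 4428 and 2041 CPM in pre-gRNA NTC. In syn-gRNA it stood at 1571, 1846 and 1618 CPM in KD and at 1505, 1589 and 1669 CPM in NTC. All 6 syn-gRNA libraries were below all gRNA and pre-gRNA libraries, by a narrow margin to gRNA NTC C, and above agoshRNA NTC C. As for PFKP, the share of all genes with such a separation was not counted.

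LDHA followed that order only in gRNA NTC. It stood at 1850, 2602 and 725 CPM in agoshRNA KD and at 2049, 2988 and 887 CPM in agoshRNA NTC, and at 1588, 2489 and 1723 CPM in gRNA KD and 2366, 2315 and 1665 CPM in gRNA NTC. It was at 2092, 1749 and 1753 CPM in pre-gRNA KD, 1900, 1682 and 1753 CPM in pre-gRNA NTC, 1399, 1617 and 1693 CPM in syn-gRNA KD and 1378, 1399 and 1443 CPM in syn-gRNA NTC. In agoshRNA the B libraries were highest for LDHA, whereas the A libraries were highest for ENO1. In pre-gRNA the B libraries, highest in each arm for every member but HK2 and LDHA, had about as much LDHA as the C libraries.

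The column letter within a setup accounted for most of the variation of each member. Of the sum of squares of log2 CPM over the 24 libraries, the letter within the setup took 58.9% for HK2, 59.3% for ENO1 and 90.1% for GAPDH, with the other members between. The setup took from 2.2% for GAPDH to 35.9% for ENO1, with 31.6% for HK2 and 31.1% for PFKP. The arm, KD or NTC, took 0.7% for PGK1 to 3.8% for TPI1. Over all genes whose mean count reached 50, the medians were 70.0% for the letter, 18.5% for the setup and 2.6% for the arm, so the small share of the arm was not particular to glycolysis.

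The members' levels correlated with each other across libraries. All 45 pairs of members had a positive correlation of log2 CPM over the 24 libraries, with a median Pearson r of 0.77. Of these, 37 had an adjusted permutation p under 0.05 (100000 permutations, two-sided, adjusted over the 45 pairs). Pairs of other genes were not counted in this way, so the counts of pairs have no background beside them. Libraries that share a setup and letter are not independent; with the mean of both arms for each of the 12 setup and letter units the median r was 0.78 and 33 pairs passed. The closest pair was GPI and ALDOA, with r = 0.97 and Spearman's rho = 0.95, and adjusted permutation p = 2.37e-05 from the smallest p that the permutations can give. Over the 12 units its r was 0.97 (adjusted permutation p = 0.0003), and r was 0.95 without the 2 libraries farthest from the median. Within the setups of 6 libraries this pair had r = 0.99 in agoshRNA, 0.97 in gRNA, 1.00 in pre-gRNA and 0.93 in syn-gRNA. Not every pair kept a positive r on fewer libraries. Within setups 45 pairs were positive in agoshRNA and in syn-gRNA, 37 in gRNA (lowest r = -0.16) and 29 in pre-gRNA (lowest r = -0.55), and 44 were positive without the 2 farthest libraries.

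HK2 and LDHA, the enzymes at the entry and the exit of the pathway, each had the highest r with the other. Their r was 0.90 and rho 0.91 over the 24 libraries (adjusted permutation p = 2.37e-05), and r was 0.90 over the 12 units (adjusted permutation p = 0.0003). It was 0.83 without the 2 farthest libraries, and 0.95, 0.85, 0.94 and 0.92 within agoshRNA, gRNA, pre-gRNA and syn-gRNA. HK2 and GAPDH had r = 0.08 and rho = 0.06 (adjusted permutation p = 0.714), and their r was 0.77 within agoshRNA, -0.03 within gRNA, -0.55 within pre-gRNA and 0.61 within syn-gRNA. LDHA had r = 0.14 with GPI, 0.17 with ALDOA, 0.25 with TPI1 and 0.22 with GAPDH, none of which passed, and HK2 had r = 0.25, 0.20 and 0.23 with GPI, ALDOA and TPI1, which did not pass either. With PFKP, ENO1 and PKM, HK2 had r = 0.60, 0.58 and 0.53 and LDHA had 0.44, 0.51 and 0.48, all of which passed. Over the 12 units those of HK2 passed and those of LDHA did not. PGK1 had r = 0.75 to HK2, 0.77 to LDHA, 0.65 to GAPDH and 0.91 to ENO1 over the 24 libraries. Its r to HK2 was 0.98 within agoshRNA, 0.11 within gRNA, -0.32 within pre-gRNA and 0.89 within syn-gRNA, and 0.57 without the 2 farthest libraries. Its r to LDHA was 0.90, 0.36, -0.18 and 0.77 in the same order, and 0.54 without those libraries. The ratio of LDHA to GAPDH counts ran from 0.142 in agoshRNA KD C to 0.475 in agoshRNA KD B, a range of 3.34 times within 1 setup and arm.

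GC content moved with this pattern. In each library, the log2 deviation of genes from their mean over libraries was fitted on the GC content of their longest annotated transcript. The slope ran from -0.59 per 10 percentage points in agoshRNA KD B to 0.78 in agoshRNA KD A. The level of GPI correlated with that slope at r = 0.93, ALDOA at 0.87, TPI1 at 0.83, PFKP at 0.82, PKM at 0.77 and ENO1 at 0.76. GAPDH had r = 0.64 and PGK1 0.53, whereas HK2 had r = 0.10 and LDHA -0.06. The longest transcripts of LDHA and PGK1 had the lowest GC content of the members, 44.0% and 43.3%, against 51.2% for HK2 and up to 58.8% for GAPDH.

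With a cubic trend on GC content removed from each library, all 45 pairs still had a positive r, the median was 0.66 and 31 passed. HK2 and LDHA then had r = 0.73 (adjusted permutation p = 0.000132 over the 24 libraries), and HK2 and GAPDH 0.08. Each of HK2 and LDHA then had a closer partner among the members, HK2 with PFKP (0.83) and LDHA with ENO1 (0.91). LDHA moved towards the other members, from 0.51 to 0.91 with ENO1, from 0.48 to 0.87 with PKM and from 0.14 to 0.66 with GPI. GAPDH moved away from some, from 0.65 to 0.08 with PGK1 and from 0.67 to 0.23 with ENO1. The separation of LDHA from GPI, ALDOA and TPI1 was therefore not kept, while the low r between HK2 and GPI (0.09), ALDOA (0.11) and GAPDH was. Whether the GC trend is technical was not tested.

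**Figure D1:**
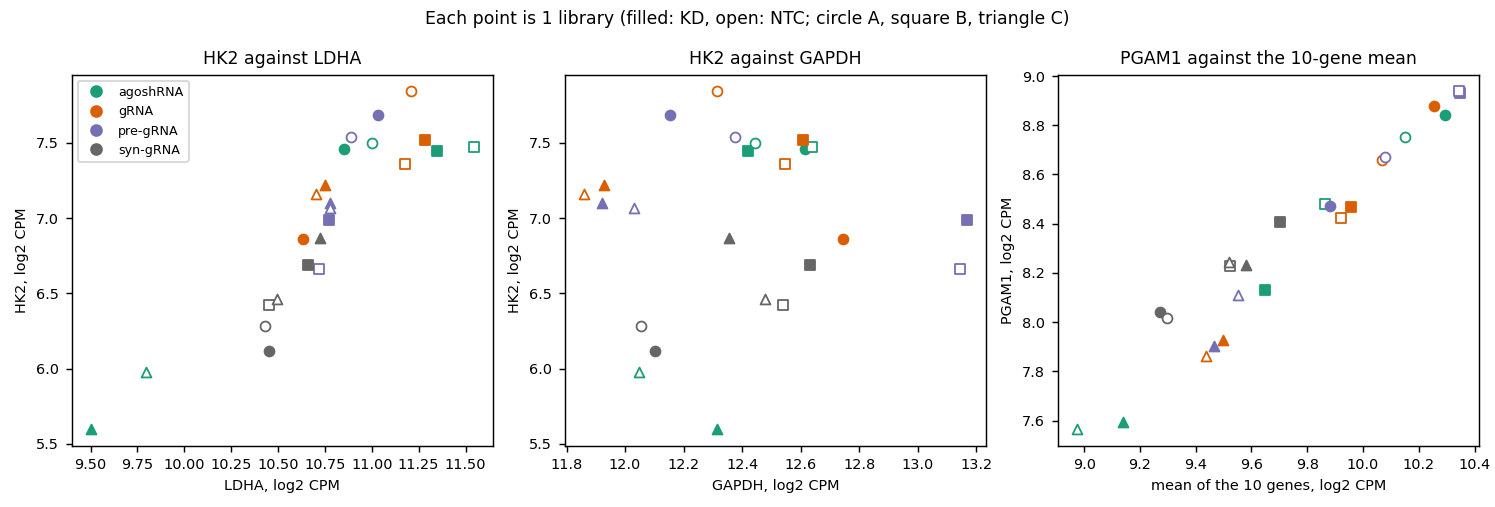
Levels on a log2 CPM scale, 1 point per library, for HK2 against LDHA, HK2 against GAPDH, and PGAM1 against the mean of the 10 genes. The panels of HK2 with LDHA and of PGAM1 show a band (r = 0.90 and 0.97), with agoshRNA KD C and NTC C at the lower end, and the panel of HK2 with GAPDH shows no trend (r = 0.08).

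The genes whose level followed the members' mean most closely included other glycolytic genes. Of 13825 genes whose mean count reached 50, members left out, PGAM1, the phosphoglycerate mutase that acts between PGK1 and ENO1, came first with r = 0.97 (rho = 0.96) over the 24 libraries and at least 0.98 within each setup. PFKFB4, a bifunctional enzyme that sets the level of the phosphofructokinase activator fructose 2,6-bisphosphate, came second with r = 0.97 and 0.94 to 0.99 within setups. WDR54, ADSL and NSMCE1 followed with r of 0.96, 0.95 and 0.95. In all, 62 genes (0.449%) had r above 0.9. The most opposite genes were RAB1A and SERP1 with r = -0.92, then CTC-554D6.1, STAM and SRP19 with r = -0.90, and all 5 had a GC content of 38.3 to 43.2%. These correlations are descriptions over libraries that share setup, letter and GC trend.

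Of 38 further genes of glucose metabolism, 29 had enough counts to be ranked in this way, and 21 of them had a positive r with the members' mean, with a median of 0.71. Over all ranked genes 52.1% were positive and the median was 0.08. The glucose transporter SLC2A1 had r = 0.94, PFKL 0.93, ALDOC 0.92, PFKFB3 0.91, HK1 0.88, PFKM 0.83 and ENO2 0.76. LDHB, the other lactate dehydrogenase subunit, went the opposite way with r = -0.61, as did the lactate transporter SLC16A1 with -0.62 and BPGM with -0.74. LDHB stood at 352 CPM in agoshRNA KD A, where ENO1 was at 4027 CPM, and at 1321 CPM in agoshRNA KD B, and the ratio of LDHA to LDHB counts ran from 0.829 to 5.25 across libraries. HK1 averaged 28.0 CPM per kb, PFKL 17.9 and PFKM 15.4 with the deposited length, beside the 22.3 and 16.8 of HK2 and PFKP on that scale. That comparison depends on the length used: per kb of the longest transcript HK1 was at 44.1 CPM and HK2 at 23.4, and per kb of the median transcript PFKL was at 67.2 CPM and PFKP at 134. With the deposited length ENO2 (21.7) and ALDOC (8.68) were far below ENO1 and ALDOA, and PGAM1 was at 130 CPM per kb.

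Knockdown of ciRS-7 was not followed by a detectable change of any member. In each setup the 6 libraries were tested with the Wald test of DESeq2, and a gene was called at a Benjamini-Hochberg adjusted p under 0.05. None of the 10 members was called in agoshRNA, gRNA, pre-gRNA or syn-gRNA, none had an unadjusted p under 0.05, and the lowest adjusted p was 1.00. Nor was any gene called at all (0.0% of 17802, 18371, 18717 and 18513 genes tested), with 0, 17, 2 and 55 genes at an unadjusted p under 0.05. The quasi-likelihood test of edgeR called 0 genes too, with 3, 34, 11 and 176 genes at an unadjusted p under 0.05. These counts are far below a share of 0.05 of the genes, so both tests, which leave out the letters, were conservative. With the letter as a replicate block in DESeq2, 105, 113, 1011 and 241 genes had an unadjusted p under 0.05. That fit called 1 gene, which was no member, in syn-gRNA and 0 in the other setups.

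In agoshRNA the log2 difference between KD and NTC ran from -0.18 (SE 0.66) for LDHA to 0.19 (SE 0.42) for GPI, with a median of 0.09 against 0.06 over all genes tested. In gRNA it ran from -0.16 (SE 0.34) for HK2 to 0.41 (SE 0.44) for ALDOA, with a median of 0.32 against 0.02. In pre-gRNA it ran from -0.21 (SE 0.54) for ENO1 to 0.13 (SE 0.35) for HK2, with a median of -0.16 against 0.01. In syn-gRNA it ran from -0.01 (SE 0.19) for ALDOA to 0.19 (SE 0.19) for HK2, with a median of 0.06 against 0.00. The standard errors of the members were 0.14 to 0.19 in syn-gRNA and 0.32 to 0.66 in the other setups. With the letter as a replicate block they were 0.15 to 0.19 in agoshRNA, 0.18 to 0.21 in gRNA, 0.09 to 0.10 in pre-gRNA and 0.08 to 0.11 in syn-gRNA, and no member was called.

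These medians moved with single libraries. Leaving out 1 library at a time gave medians of -0.21 to 0.30 in agoshRNA, -0.03 to 0.54 in gRNA, -0.71 to 0.28 in pre-gRNA and -0.06 to 0.18 in syn-gRNA. The agoshRNA median was -0.21 without NTC C, -0.17 without KD A and 0.30 without NTC A. The gRNA value of -0.03 was that without KD A, the pre-gRNA value of -0.71 that without KD B, and 0.28 that without NTC B. In the authors' deposited table the lowest p-value of a member was 0.293, for GAPDH in gRNA, with a log2 fold change of 0.34.

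Compared within letters, the direction was shared by several members. In gRNA, 6 members (ALDOA, TPI1, GAPDH, PGK1, ENO1 and PKM) were higher in KD in all 3 letters, by 0.43 to 0.57 on the log2 scale in letter A for ALDOA, TPI1, GAPDH, ENO1 and PKM but at most 0.16 in letters B and C. HK2 went the other way in letter A of that setup, by -0.97, as did LDHA by -0.57. In pre-gRNA, 5 members (GPI, PFKP, TPI1, ENO1 and PKM) were lower in KD in all 3 letters, by -0.02 to -0.35, and HK2 was higher in all 3. In agoshRNA only HK2 and LDHA kept a direction, lower in KD in all 3 letters, and in syn-gRNA only PGK1 and LDHA, higher in KD in all 3. Over all genes with at least 10 counts in 3 of a setup's 6 libraries, the shares that were higher and lower in KD in all 3 letters were 10.5% and 11.3% in agoshRNA, 7.04% and 15.8% in gRNA, 19.5% and 16.9% in pre-gRNA, and 12.9% and 11.3% in syn-gRNA. The members correlate with each other, so their counts are a description and not independent observations. With 3 letters a two-sided exact permutation test of the pairs can go no lower than 0.25, and none was run.

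**Figure D2:**
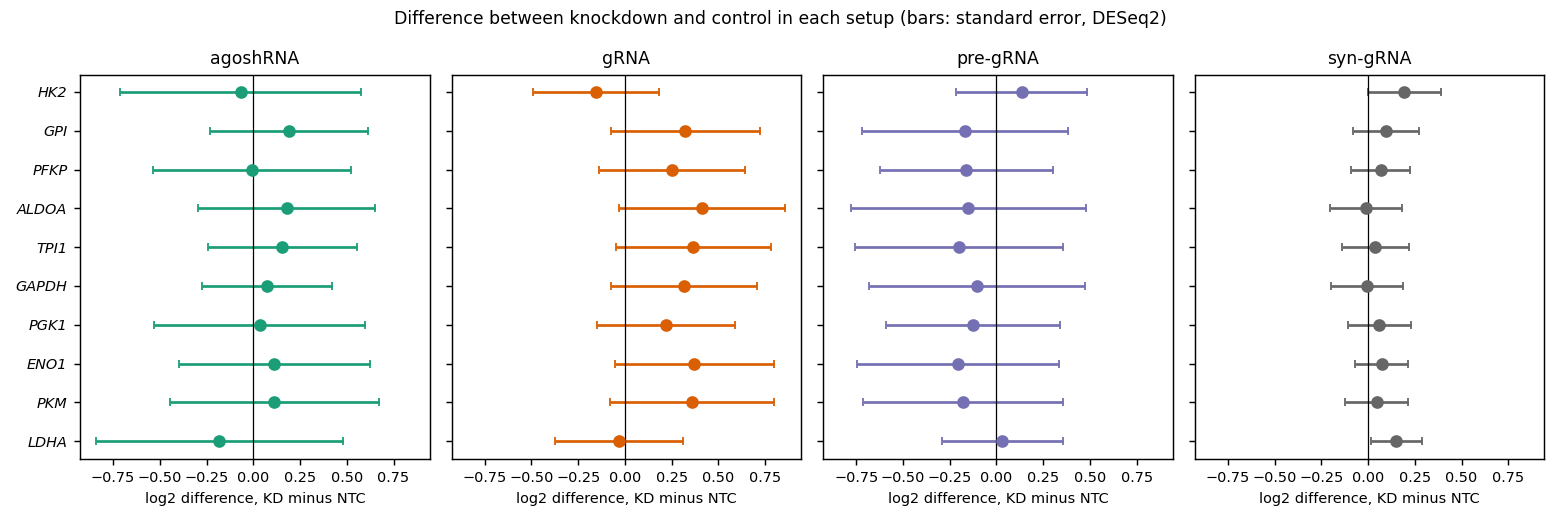
Log2 difference between KD and NTC (horizontal axis) of the 10 genes (vertical axis) in each setup, with bars for the DESeq2 standard error. Values lie between -0.21 and 0.41; the bars are shortest in syn-gRNA, and only the bar of LDHA in syn-gRNA lies clear of 0.

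The KD effects were also compared between setups in 1 model of the 24 libraries, over the 6 pairs of setups. No member and no gene was called for any of the 6 differences (0.0% of 20172 genes each, with 29 to 45 genes at an unadjusted p under 0.05, and 0 calls by edgeR with 46 to 61 at an unadjusted p under 0.05). The widest differences were between gRNA and pre-gRNA, from -0.29 for HK2 to 0.58 for ENO1, with a median of 0.46 against -0.01 over all genes. That median was -0.02 without pre-gRNA NTC B, 0.12 without gRNA KD A, 0.21 without pre-gRNA KD C and 1.09 without pre-gRNA KD B. The effects of the other pairs of setups lay between -0.36 and 0.41 for all members.

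The NTC groups of different setups were compared in the same model, and no member was called in any of the 6 pairs. Of all 20172 genes, 0.0496% were called between agoshRNA and gRNA, 0.0347% between agoshRNA and pre-gRNA, 0.0% between gRNA and pre-gRNA (with 104 genes at an unadjusted p under 0.05), 1.84% between agoshRNA and syn-gRNA, 1.32% between gRNA and syn-gRNA, and 3.25% between pre-gRNA and syn-gRNA. At an unadjusted p under 0.05 there were HK2 between gRNA and syn-gRNA and ENO1 and PFKP between pre-gRNA and syn-gRNA, where 11.8% and 17.8% of all genes were under that p. The counterparts by edgeR were 0 members called and 1 and 1 at an unadjusted p under 0.05.

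All 10 members were higher in the pre-gRNA than in the syn-gRNA NTC libraries, by a median of 0.65 on the log2 scale against 0.04 over all genes. The median was 0.21 without pre-gRNA NTC B and 0.89 without pre-gRNA NTC C. ENO1 differed most, by 1.06 (SE 0.44, adjusted p = 0.167), then PFKP by 0.79 (SE 0.39, adjusted p = 0.27), and GAPDH least, by 0.27 (SE 0.43). Between gRNA and syn-gRNA the range was from -0.25 for GAPDH to 0.94 for HK2 (SE 0.40, adjusted p = 0.294). When DESeq2 was run on those 6 libraries alone, HK2 was called, with 0.92 (SE 0.25, adjusted p = 0.0106), as were 5.47% of the 18609 genes tested. No other comparison between setups called a member in such a fit. Between agoshRNA and syn-gRNA the range was from -0.17 for ALDOA to 0.72 for HK2, between agoshRNA and pre-gRNA from -0.81 for ALDOA to 0.18 for LDHA, between gRNA and pre-gRNA from -0.71 for ALDOA to 0.26 for HK2, and between agoshRNA and gRNA from -0.22 for HK2 to 0.26 for GAPDH.

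The KD groups were compared in the same way. No member was called, against 0.0446% of genes between agoshRNA and gRNA, 0.0446% between agoshRNA and pre-gRNA, 0.0% between gRNA and pre-gRNA, 3.14% between agoshRNA and syn-gRNA, 1.58% between gRNA and syn-gRNA and 2.52% between pre-gRNA and syn-gRNA. All 10 members were higher in agoshRNA, in gRNA and in pre-gRNA than in syn-gRNA. The medians were 0.18, 0.38 and 0.42, against 0.02, 0.04 and 0.06 over all genes. These 3 comparisons share the syn-gRNA KD libraries. Single libraries moved each median. Leaving out 1 at a time gave 0.06 (without agoshRNA KD A) to 0.44 (without agoshRNA KD C) for agoshRNA, 0.07 (without gRNA KD A) to 0.63 (without gRNA KD C) for gRNA, and -0.04 (without pre-gRNA KD B) to 0.71 (without pre-gRNA KD C) for pre-gRNA. ENO1 was the highest in each, with 0.65, 0.77 and 0.77, and the lowest was ALDOA with 0.02 or GAPDH with 0.06 and 0.15. The other 3 pairs ranged from -0.47 for ALDOA, in agoshRNA minus pre-gRNA, to 0.07 for PFKP, in gRNA minus pre-gRNA.

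The GC trend differed between these setups as well. Its slope was between -0.31 and -0.10 in the 6 syn-gRNA libraries and between -0.41 and 0.66 in the pre-gRNA libraries. With GC offsets in the model, the median of the members between the pre-gRNA and syn-gRNA NTC groups was 0.30 instead of 0.65. ENO1 was then at 0.66 (SE 0.32, adjusted p = 0.187), PGK1 at 1.06 (SE 0.60), LDHA at 0.67 (SE 0.44) and GAPDH at -0.27 (SE 0.32), so the order of the members and the sign of GAPDH and TPI1 (-0.08) depended on that step. Between the KD groups the median was 0.13 instead of 0.42, with GAPDH at -0.29, ENO1 at 0.44 and 8 members above 0. For agoshRNA minus syn-gRNA KD, GC offsets gave a median of 0.03 instead of 0.18, with 5 members above 0. For gRNA minus syn-gRNA KD they gave 0.17 instead of 0.38, with 7 members above 0.

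Of the 38 further genes of glucose metabolism, 32 passed the filter on low counts in the comparisons. None was called between KD and NTC in any setup, and none for a difference of KD effects. PCK2, a mitochondrial enzyme that makes phosphoenolpyruvate from oxaloacetate, was the 1 gene of the list that was called between setups. It was at 30.8, 35.1 and 30.9 CPM in syn-gRNA KD and 31.8, 29.7 and 32.4 CPM in syn-gRNA NTC, below every library of the other setups, of which the lowest was agoshRNA KD B at 40.5 CPM. Its log2 difference was 1.47 (SE 0.37, adjusted p = 0.0067) between the pre-gRNA and syn-gRNA NTC groups, 1.32 (SE 0.37, adjusted p = 0.0197) between the agoshRNA and syn-gRNA KD groups and 1.23 (SE 0.37, adjusted p = 0.0379) between the pre-gRNA and syn-gRNA KD groups. Of all 20172 genes, 3.25%, 3.14% and 2.52% were called in these comparisons, so 1 call among 32 genes does not set the list apart. By edgeR 149, 192 and 183 genes were called in them, against 656, 634 and 508 by DESeq2. For PCK2 no alternative fit was read out. How many of all genes were below every library of the other setups in syn-gRNA, as PCK2 was, was not counted. SLC2A1 had a larger difference between the pre-gRNA and syn-gRNA NTC groups, 1.61. Its error was wider (SE 0.58, adjusted p = 0.101) and it did not pass. The setups were compared across libraries whose handling beyond the guide format the labels do not describe, so the setup and anything that was done separately for it cannot be told apart.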

How the data were processed

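Poly(A)-selected, non-stranded RNA was sequenced with reads of 100 nt, per the labels. The read counts of 60658 genes were made by the authors on hg19 and deposited in 4 tables with the same counts. The submitters' processing notes name Trim Galore, STAR 2.7.3a, featureCounts and DESeq2, while their settings are not given in the sources used here. The log2 fold changes and p-values of the authors were deposited in the same tables, and 24 columns of normalized counts were not used. Members and lists were chosen with earlier results of these data known. Every member is named, with its levels; in each comparison those called and those with the highest and lowest difference are named, and so are genes of the list that were called and the 5 genes most like and most unlike the members' mean.

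Genes that reached 10 counts in 3 or more libraries of a fit were tested with DESeq2 1.42.0 in R 4.3.3, whose size factors were computed from the libraries of the fit, or with edgeR 4.0.16 and TMM factors as an alternative. The KD arm was compared with NTC in the 6 libraries of a setup, and setups were compared in 1 model of the 24 libraries. Correlations used log2 of CPM plus 0.5. The fits were tested on simulated data. GC content and transcript lengths came from GENCODE release 29, which matched 93.2% of genes.

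Libraries of the same setup and letter deviated together from their group means in all 12 pairs of KD and NTC (r from 0.36 to 0.97), so letters were taken as pairing the arms in an alternative with a replicate block. Nothing links the letters to the replicate numbers of the labels. Other alternatives were TMM factors in DESeq2, no filter, GC offsets, other sets of libraries in the model and leaving out each library.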

Additional observations from a re-analysis of the deposited data

How the results depend on the processing

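The count of members called stayed at 0 in 297 of 298 recomputed values, over edgeR, TMM factors in DESeq2, no filter on low counts, GC offsets, other sets of libraries, the replicate block by column letter and leaving out each library. The exception was the fit of the 6 libraries of the gRNA and syn-gRNA NTC groups alone, with 1 member called (HK2). The replicate block changed no call of a member. In pre-gRNA, blocked by letter, 5 members had an unadjusted p under 0.05 (lowest adjusted p = 0.831), as did 5.40% of the genes tested. For the difference of KD effects between gRNA and pre-gRNA, blocked by letter within the setup, 6 members had an unadjusted p under 0.05 (lowest adjusted p = 0.527), as did 9.12% of the genes tested. The count of positively correlated pairs that passed was 37, and it was 29 to 37 under the alternatives in which it was counted, which do not include the single setups, with 29 for deviations from the group mean and 31 with the GC trend removed, an alternative chosen after seeing the data. Of 392 recomputed differences of the highest and lowest members, none of them past the threshold apart from HK2 above, 351 kept their sign.

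With GC offsets, LDHA between the agoshRNA and pre-gRNA NTC groups was at -0.11, GAPDH between pre-gRNA and syn-gRNA at -0.27 (NTC) and -0.29 (KD) and between gRNA and syn-gRNA KD at -0.29, ALDOA between agoshRNA and syn-gRNA KD at -0.32, and ALDOA between syn-gRNA KD and NTC at 0.01. The last value was 0.00 with the replicate block and GC offsets together, and 0.00 with all 24 libraries in the model. The cause was not tested. Leaving out 1 library at a time changed the sign of 33 values. The ranges between KD and NTC were -0.04 to 0.42 for GPI and -0.72 to 0.37 for LDHA in agoshRNA, -0.33 to 0.02 for HK2 in gRNA, -0.01 to 0.30 for HK2 and -0.72 to 0.31 for ENO1 in pre-gRNA, and -0.22 to 0.16 for ALDOA in syn-gRNA. Between NTC groups they were -0.52 to 0.13 for HK2 (agoshRNA minus gRNA), -0.36 to 0.52 for LDHA (agoshRNA minus pre-gRNA), -0.46 to 0.03 for ALDOA (agoshRNA minus syn-gRNA) and -0.34 to 0.54 for GAPDH (pre-gRNA minus syn-gRNA). Between KD groups they were -0.23 to 0.25 for GAPDH and -0.65 to 0.08 for ALDOA (agoshRNA minus gRNA), -0.50 to 0.33 for PFKP and -0.80 to 0.34 for ALDOA (agoshRNA minus pre-gRNA), -0.31 to 0.25 for ALDOA (agoshRNA minus syn-gRNA), -0.32 to 0.43 for PFKP and -0.54 to 0.66 for ALDOA (gRNA minus pre-gRNA), -0.17 to 0.31 for GAPDH (gRNA minus syn-gRNA) and -0.53 to 0.42 for GAPDH (pre-gRNA minus syn-gRNA).

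The lowest count of a member in a library was 567, for HK2. Coefficients of variation between the 3 libraries of a group reached 59.5%, for PFKP in agoshRNA KD. Whether depth or this spread limited the calls was not tested.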

Other observations

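PDK1, a kinase that inhibits pyruvate dehydrogenase, is a known hypoxia-induced gene. It did not follow the members' mean (r = -0.26 over the 24 libraries) and was singled out after its values were seen. It stood at 25.2, 134 and 19.0 CPM in agoshRNA KD A, B and C and at 36.2, 124 and 29.3 CPM in agoshRNA NTC, so that the B libraries were far above the others of that setup in both arms. The B libraries of agoshRNA were also highest for LDHA and for the glucose transporter SLC2A3, at 66.6 and 77.7 CPM in KD and NTC. They were not highest for ALDOA, GPI, PGK1, SLC2A1, PFKFB3 or PFKFB4, for which the A libraries of that setup were highest in both arms. SLC2A1, for example, was at 95.5 CPM in agoshRNA KD A and at 42.6 CPM in KD B. In pre-gRNA the B libraries were lowest for PDK1, at 31.7 and 31.9 CPM, where ALDOA and GAPDH were highest. The slope on GC content was -0.59 and -0.45 in agoshRNA KD B and NTC B, and 0.66 and 0.64 in pre-gRNA KD B and NTC B. Whether it bears on the level of PDK1 was not tested.

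Transketolase (TKT), an enzyme of the pentose phosphate pathway that feeds back into glycolysis, ranged from 423 to 1107 CPM and had r = 0.71 with the members' mean. The 2 subunits of the mitochondrial pyruvate carrier had negative values, with r = -0.55 for MPC1 and -0.25 for MPC2.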
